A study of Drosophila melanogaster with 2 samples.

Results

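The Mediator, TFIID and RNA polymerase II genes of Drosophila melanogaster were examined for peaks of a tagged CG10321 protein in embryos. They were all protein-coding genes of the Ensembl annotation on the main chromosome arms whose symbol starts with MED and a digit, Taf and a digit, or Polr2. This gave 53 of 13968 protein-coding genes, of which 25 were MED genes, 15 were Taf genes and 13 were Polr2 genes. The rule used symbols only and no measured value. It takes in Polr2M, which is not a core polymerase subunit, and Taf12L, a paralog of Taf12, and it leaves out Mediator subunits that carry other symbols.

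The series comprised chromatin immunoprecipitation with sequencing (ChIP-seq) of whole embryos aged 0 to 24 h from a transgenic line in which CG10321 is fused to enhanced green fluorescent protein (eGFP), precipitated through the GFP tag. It had 1 group with 2 biological replicates, both from the same line, and no untagged or untreated sample was analysed here. Every value therefore refers to peaks that the authors called, without a background measured in the same way, and read depth is unknown. Because embryos of all these ages were taken whole, binding in few nuclei and weak binding in many nuclei cannot be told apart.

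RNA polymerase II transcribes protein-coding genes, and its subunits include a catalytic pair, an assembly platform and several small subunits that polymerases I and III also use. TFIID, built from the TATA-binding protein and its associated factors (TAFs), recognises core promoters and nucleates the preinitiation complex. Mediator, arranged in head, middle and tail modules with a separable kinase module, bridges DNA-bound regulators and the polymerase. All 3 are broadly used complexes. Whether each gene taken in by the symbol rule, paralogs such as Taf12L included, is active in most cells was not tested, as no expression was measured here.

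A gene counted as bound in a peak list if any of its annotated transcription start sites (TSSs) had a summit no more than 500 bp away. The main list was the conservative list of both replicates, with 3006 peaks on the main arms. Each replicate also had a thresholded list, with 1996 and 2128 peaks, and a ranked list, with 84640 and 94184 peaks, which holds many weak peaks. Signal below is the value that the authors' peak caller gave a peak. It serves to rank peaks within 1 list and is not compared between lists. CG10321 itself was bound in the conservative list.

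In the conservative list 9 of the 53 genes were bound, a share of 17.0% (Wilson 95% interval 9.20 to 29.2), against 10.9% of all protein-coding genes. At the share of all protein-coding genes 5.79 of the 53 would be bound, and the interval held that share. The bound genes were the Mediator genes MED17, MED27 and MED30, the TFIID genes Taf4 and Taf5, and the polymerase genes Polr2B, Polr2C, Polr2F and Polr2H. By complex these were 3 of 25 MED genes (12%, interval 4.17 to 30.0), 2 of 15 Taf genes (13.3%, 3.74 to 37.9) and 4 of 13 Polr2 genes (30.8%, 12.7 to 57.6). No test between gene groups was made, and these intervals cover counting over genes only, with neighbouring genes able to share a peak.

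The thresholded list of replicate 1 held a summit at 7 of the 53 genes, 13.2%, against 7.90% of all protein-coding genes. That of replicate 2 held a summit at 6, 11.3%, against 8.16%. The mean over the replicate lists was 12.3% ± 1.33 (SD, n = 2) for the 53 genes and 8.03% ± 0.182 for all protein-coding genes. For MED genes the mean was 10% ± 2.83, for Taf genes 10% ± 4.71 and for Polr2 genes 19.2% ± 5.44. The Polr2 share was the highest of the 3 in each replicate, on 3 genes in replicate 1 and 2 genes in replicate 2. Its interval lay above the background share in the conservative list, whereas in replicate 2 it ran from 4.33 to 42.2 and held the 8.16% of all protein-coding genes. Only MED30, Taf5, Polr2B and Polr2H were bound in the thresholded lists of both replicates, which is 7.55% of the 53 genes against 5.54% of all protein-coding genes. The other thresholded list of both replicates added MED6, Polr2E and Polr2J and lacked Polr2C, so that 11 genes (20.8%) were bound in it, against 12.3%.

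**Figure D1:**
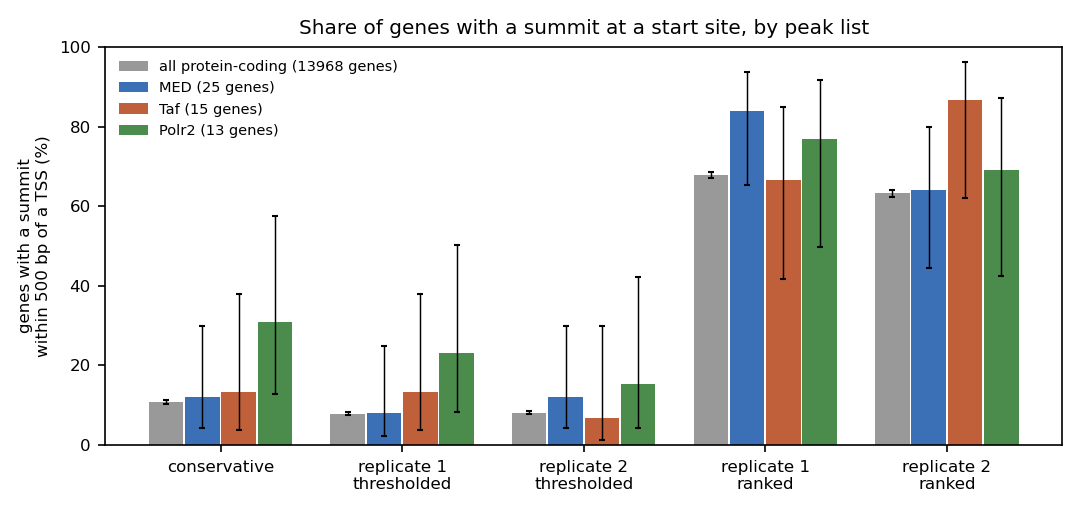
Percent of genes with a summit within 500 bp of a TSS, by peak list, for all protein-coding genes (grey), MED (blue), Taf (orange) and Polr2 (green) genes, with Wilson 95% intervals as error bars. In the conservative list Polr2 genes stood at 30.8% and all protein-coding genes at 10.9%, whereas in the ranked lists all 4 bars lay at 63.2% or above.

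Sequence around the summit is given for 4 of the bound genes, on the strand of the gene and with the summit at base 101 of 201 bases. The bases come from the RefSeq copy of the dm6 assembly. MED30 (chr3L:654162-654362, minus strand), Polr2H (chr3L:21728704-21728904, plus strand) and Polr2B (chr3R:14125614-14125814, plus strand) were bound in the conservative list and in both replicates' thresholded lists. MED27 (chr3R:5654823-5655023, plus strand) was bound in the conservative list and, of the replicates' thresholded lists, in that of replicate 2 alone. These are the bound genes with the highest conservative signal after Taf5, whose window is not shown. Capitals mark matches to TATAAA and to CGATA, each searched on both strands.
MED30: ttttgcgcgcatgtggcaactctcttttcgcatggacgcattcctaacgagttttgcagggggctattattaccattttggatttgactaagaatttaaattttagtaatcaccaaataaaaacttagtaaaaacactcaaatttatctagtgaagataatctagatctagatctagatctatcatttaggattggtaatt
Polr2H: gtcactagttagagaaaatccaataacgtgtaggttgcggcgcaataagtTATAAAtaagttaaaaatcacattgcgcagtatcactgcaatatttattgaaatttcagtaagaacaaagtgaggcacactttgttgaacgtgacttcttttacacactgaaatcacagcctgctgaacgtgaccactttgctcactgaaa
Polr2B: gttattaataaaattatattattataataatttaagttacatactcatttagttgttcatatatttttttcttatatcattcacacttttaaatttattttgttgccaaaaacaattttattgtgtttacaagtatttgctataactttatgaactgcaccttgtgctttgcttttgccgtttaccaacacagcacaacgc
MED27: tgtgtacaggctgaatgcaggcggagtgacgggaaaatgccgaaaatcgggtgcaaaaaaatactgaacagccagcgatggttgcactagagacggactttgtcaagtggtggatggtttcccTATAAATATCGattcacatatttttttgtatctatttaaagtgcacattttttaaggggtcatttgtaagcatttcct
The MED30 and Polr2B windows held none of the 7 motifs searched. TATAAA lay at bases 51 to 56 of the Polr2H window. In the MED27 window TATAAA at bases 124 to 129 abutted CGATA on the other strand at bases 130 to 134. The Polr2B window, which includes the annotated start of Polr2B at base 178, had a GC content of 24.9%.

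Among the Mediator genes MED30 (3L, 652987 to 654089, minus strand), a subunit known from animals and not from budding yeast, had the strongest peak. Its conservative peak had a signal of 136 and rank 1032 of 3006, with the summit 173 bp upstream of the TSS. In replicate 1 the thresholded peak had a signal of 53.0, with its summit 181 bp upstream, and in replicate 2 a signal of 85.5, with its summit 196 bp upstream. The 2 replicate summits were 15 bp apart, and all of them lay in the intergenic stretch between MED30 and the start of Rev1, which encodes a translesion DNA polymerase and is transcribed the other way. The conservative summit was nearer to the Rev1 start, at 101 bp, than to the MED30 start.

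MED27 (3R, 5655139 to 5656336, plus strand) and MED17 (3R, 18189072 to 18191265, plus strand), the latter a scaffold of the Mediator head module, were each called by only 1 replicate's thresholded list. The conservative peak of MED27 had a signal of 89.3 and rank 1742, with the summit 216 bp upstream, the farthest of all bound genes here. It had a signal of 54.2 in the thresholded list of replicate 2, beside a weak peak of 2.77 whose summit lay 6 bp upstream of the TSS. In replicate 1 it appeared only in the ranked list, with a signal of 25.2. MED17 had a conservative signal of 83.0 and rank 1903, with the summit 141 bp upstream. Its signal was 51.8 in the thresholded list of replicate 2 and 33.8 in the ranked list of replicate 1. The summits of the replicates stayed within the same intergenic stretch for both genes. MED6, another head subunit, showed the reverse case and was absent from the conservative list. Replicate 1 called it with a signal of 49.8, 22 bp upstream, while the strongest ranked summit of replicate 2 had a signal of 19.5 and lay 477 bp downstream of a TSS.

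Polr2B (3R, 14125791 to 14130111, plus strand), which encodes the subunit that forms the active centre together with Polr2A, was bound in every list. Its signal was 88.7 in the conservative list (rank 1755), 37.4 in the thresholded list of replicate 1 and 45.4 in that of replicate 2. The summits lay 77, 94 and 70 bp upstream of the TSS in these lists. In both replicates the peak was near the bottom of the list, with 2.36% and 10.3% of the bound coding genes at a lower signal. Polr2A, which encodes the largest subunit, was not bound in any thresholded list. Its ranked summits lay 79 and 124 bp upstream in replicates 1 and 2, with signals of 20.9 and 19.6.

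Polr2H and Polr2F encode small subunits that all 3 nuclear polymerases share. Polr2H (3L, 21728932 to 21729694, plus strand) had a conservative signal of 119 and rank 1206, with the summit 128 bp upstream. The replicates gave 61.4, with the summit 100 bp upstream, and 58.7, with the summit 136 bp upstream. The conservative summit fell in the 5' UTR of CG11247, 2 bp from that gene's start. Polr2F (3R, 5371795 to 5372397, plus strand) had a conservative signal of 82.9 and rank 1911, with the summit 28 bp upstream, the nearest to a TSS of all bound genes here. A further conservative peak, which overlapped the first, had a signal of 8.62 and its summit 179 bp downstream, in the intron of Polr2F. Replicate 1 called Polr2F with a signal of 60.4, and replicate 2 listed it only in its ranked list, at 27.0 and 15 bp downstream of the TSS. Of the other shared subunits, Polr2E was bound only in the other thresholded list, with a signal of 51.8, and Polr2K and Polr2L had no summit within 500 bp in the ranked list of either replicate.

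Polr2C (2L, 13833337 to 13834306, plus strand), part of the assembly platform, was the weakest call. Its conservative signal was 58.4 at rank 2704 of 3006, with the summit 145 bp upstream, and 5.44% of the 1525 bound coding genes had a lower signal. Neither replicate's thresholded list held it, and its ranked signals were 30.8 in replicate 1 and 30.2 in replicate 2. The summit lay nearer to the starts of PolG2 and GatC on the other strand than to that of Polr2C. Polr2J, its partner in the platform, was bound only in the other thresholded list, with a signal of 74.6 and the summit 74 bp upstream.

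Of the TFIID genes Taf5 (2R, 10877312 to 10879673, minus strand), which encodes a WD-repeat scaffold subunit, had the strongest peak of all 53 genes. The conservative signal was 204 at rank 696 of 3006, and 73.6% of the 1525 bound coding genes had a lower one. Replicate 1 gave a signal of 64.6 and replicate 2 one of 134, both in the thresholded lists. The summits lay 123, 114 and 173 bp upstream of the TSS in the conservative list and in replicates 1 and 2, between Taf5 and Pex6, a peroxisome biogenesis gene on the other strand. The replicate summits were 59 bp apart, the widest spacing of the 4 genes called in both replicates.

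Taf4 (3L, 16113212 to 16121651, plus strand), a histone-fold subunit that pairs with Taf12, differed from the others in position. Its conservative summit lay inside the gene, in an intron, 75 bp upstream of 1 of its 3 annotated TSSs, with a signal of 83.1 and rank 1900. Replicate 1 called the peak with a signal of 49.6, and replicate 2 listed it in its ranked list at 38.2. Taf12 itself was not bound, and its nearest conservative summit was 1456 bp away.

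**Figure D2:**
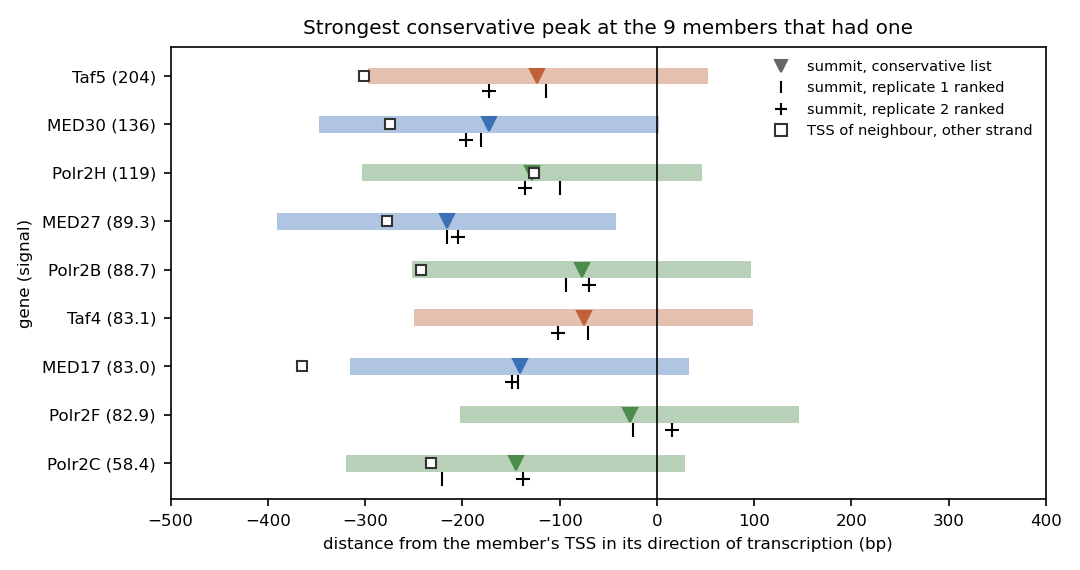
Position of the strongest conservative peak (bar) and its summit (triangle) at the 9 bound genes, ordered by signal, as distance in bp from the gene's TSS in its direction of transcription, with the strongest ranked summit of replicate 1 (vertical tick) and replicate 2 (plus sign) and the TSS of the nearest gene on the other strand (open square). All 9 triangles lie upstream of the TSS, between -216 and -28 bp, and the only replicate summit downstream of its TSS is that of Polr2F in replicate 2.

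All 9 conservative summits lay upstream of the TSS and within 250 bp of it, with a median offset of -128 bp. Among the 1525 bound protein-coding genes 78.4% had their strongest summit upstream and 62.8% had it 1 to 250 bp upstream. The same held in the thresholded lists, with 7 of 7 upstream in replicate 1 and 6 of 6 in replicate 2, against 79.1% and 82.6% of all bound coding genes. Each of these shares rests on at most 9 genes. In the ranked lists the strongest summits of the 53 genes lay on both sides. In replicate 1, 27 lay upstream (65.9%) and 14 downstream, against 53.8% upstream for all protein-coding genes with a ranked summit. In replicate 2, 20 lay upstream (52.6%) and 18 downstream, against 54.4% upstream.

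The peaks at these genes were mostly of middling or low signal. The median conservative signal was 88.7 over the 9 bound genes (range 58.4 to 204) and 112 over all bound protein-coding genes, and only Taf5, MED30 and Polr2H exceeded the latter. In replicate 1 the median over 7 bound genes was 53.0 against 71.0, and none of the 7 exceeded it. In replicate 2 the median over 6 genes was 56.5 against 80.3, and Taf5 and MED30 exceeded it. When only conservative peaks at or above the median signal of that list were kept, 3 of the 53 genes remained bound, 5.66%, against 6.20% of all protein-coding genes.

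Most of these genes have a head-to-head promoter, meaning that a protein-coding gene on the other strand starts 1 to 500 bp upstream. This held for 34 of the 53 genes, 64.2%, and for 27.3% of all protein-coding genes. Among the head-to-head genes 7 of 34 were bound in the conservative list (20.6%, Wilson 95% interval 10.3 to 36.8), against 689 of 3815 such protein-coding genes (18.1%). Among the remaining genes 2 of 19 were bound (10.5%, 2.94 to 31.4), against 836 of 10153 (8.23%). Within each class the interval held the share of all protein-coding genes. The 7 bound head-to-head genes were MED17, MED27, MED30, Polr2B, Polr2C, Polr2H and Taf5, and only Polr2F and Taf4 were bound without such a neighbour.

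A peak at a shared promoter can be assigned to either gene. For MED27, MED30, Polr2C and Polr2H the TSS nearest to the conservative summit belonged to the neighbour. For Taf5 the conservative summit was nearest to the Taf5 start. The thresholded summit of replicate 2 there was nearer to the Pex6 start, at 128 bp, than to that of Taf5, at 173 bp. When each summit was assigned to the gene of the nearest TSS alone, 5 of the 53 genes remained, namely MED17, Polr2B, Polr2F, Taf4 and Taf5. That share of 9.43% compares with 8.59% of all protein-coding genes. The Polr2 count fell to 2 of 13 under this assignment, and the MED count to 1 of 25.

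**Figure D3:**
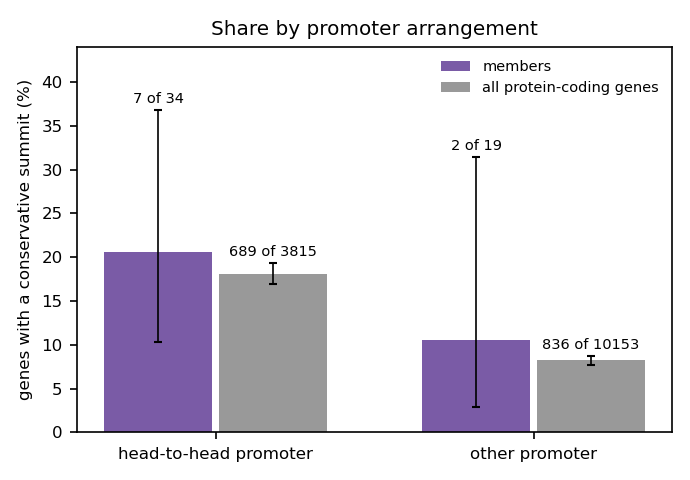
Percent of genes with a conservative summit within 500 bp of a TSS, for genes with a head-to-head promoter and for all others, with the Mediator, TFIID and polymerase II genes in purple (members) and all protein-coding genes in grey, and Wilson 95% intervals as error bars. The purple and grey bars stand at 20.6% and 18.1% for head-to-head promoters and at 10.5% and 8.23% for the others.

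No gene lay close to the 500 bp limit in the conservative list. The farthest bound summit was that of MED27 at 216 bp, and the nearest one outside was 920 bp from the TSS of Polr2I, a peak with a signal of 367 next to su(Hw). Over the 44 genes that were not bound the nearest conservative summit was at a median of 10186 bp, with 5 genes within 2000 bp and 22 beyond 10000 bp. The matching distances over all unbound protein-coding genes are not given here, so these are not read as far or near. A limit of 200 bp left 8 genes bound (15.1%, against 7.74% of all protein-coding genes) and one of 1000 bp gave 10 (18.9%, against 13.4%). The genes changed by these limits were MED27, which was lost, and Polr2I, which was gained.

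The ranked lists held a summit at most genes, bound or not. In all, 41 of the 53 genes (77.4%) had a ranked summit within 500 bp in replicate 1, against 67.9% of all protein-coding genes. In replicate 2 there were 38 (71.7%), against 63.2%. A ranked summit in each of the replicates was found at 33 genes (62.3%), against 50.6%, and the ranked list of both replicates held one at 45 (84.9%), against 78.7%. Of the 44 genes unbound in the conservative list, 32 (72.7%) had one in replicate 1, against 64.0% of all unbound protein-coding genes, with a median signal of 21.0 (range 9.70 to 49.8). In replicate 2 there were 29 (65.9%), against 58.8%, with a median of 17.2 (6.90 to 38.0). The medians for all unbound protein-coding genes with a ranked summit were 17.5 and 15.5.

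The 6 unbound genes with the highest mean rank over both replicates, taken among genes with a ranked summit in each and no call in any replicate's thresholded list, came from Mediator and the polymerase. Polr2E had signals of 31.7 in replicate 1 and 28.2 in replicate 2, and Polr2J had 45.0 and 24.8. Of the middle-module genes, MED31 had 25.6 and 27.7, and MED4 had 25.5 and 25.8. MED20, a head subunit, had 33.7 and 20.7, and MED23, a tail subunit, had 22.2 and 23.4. Polr2E had a pair of ranked summits in both replicates, 229 bp upstream and 393 bp downstream of its TSS in replicate 1 and 228 bp upstream and 381 bp downstream in replicate 2. The upstream peak was the stronger of the pair in replicate 1 and the downstream one in replicate 2. Taf10 and Taf10b, paralogs that start 45 bp apart in opposite directions, shared 1 ranked peak in each replicate, with signals of 15.2 and 24.7. At least 1 replicate's ranked list held a summit at 46 of the 53 genes (86.8%), against 80.5% of all protein-coding genes. Neither replicate's ranked list had a summit within 500 bp of MED15, MED24, Polr2K, Polr2L, Polr2M, Taf3 or Taf9. The ranked list of both replicates did hold one at MED24, Polr2L and Polr2M, with signals of 8.88, 4.74 and 5.99. The nearest ranked summits in replicates 1 and 2 were at 562 and 557 bp for MED15, 501 and 594 bp for Polr2L and 543 and 501 bp for Polr2M. They were farther away for Taf9, at 863 and 883 bp, Polr2K, at 1111 and 666 bp, and MED24, at 1199 and 1043 bp. Taf3, on the small chromosome 4, stood apart, at 10443 and 23162 bp.

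**Figure D4:**
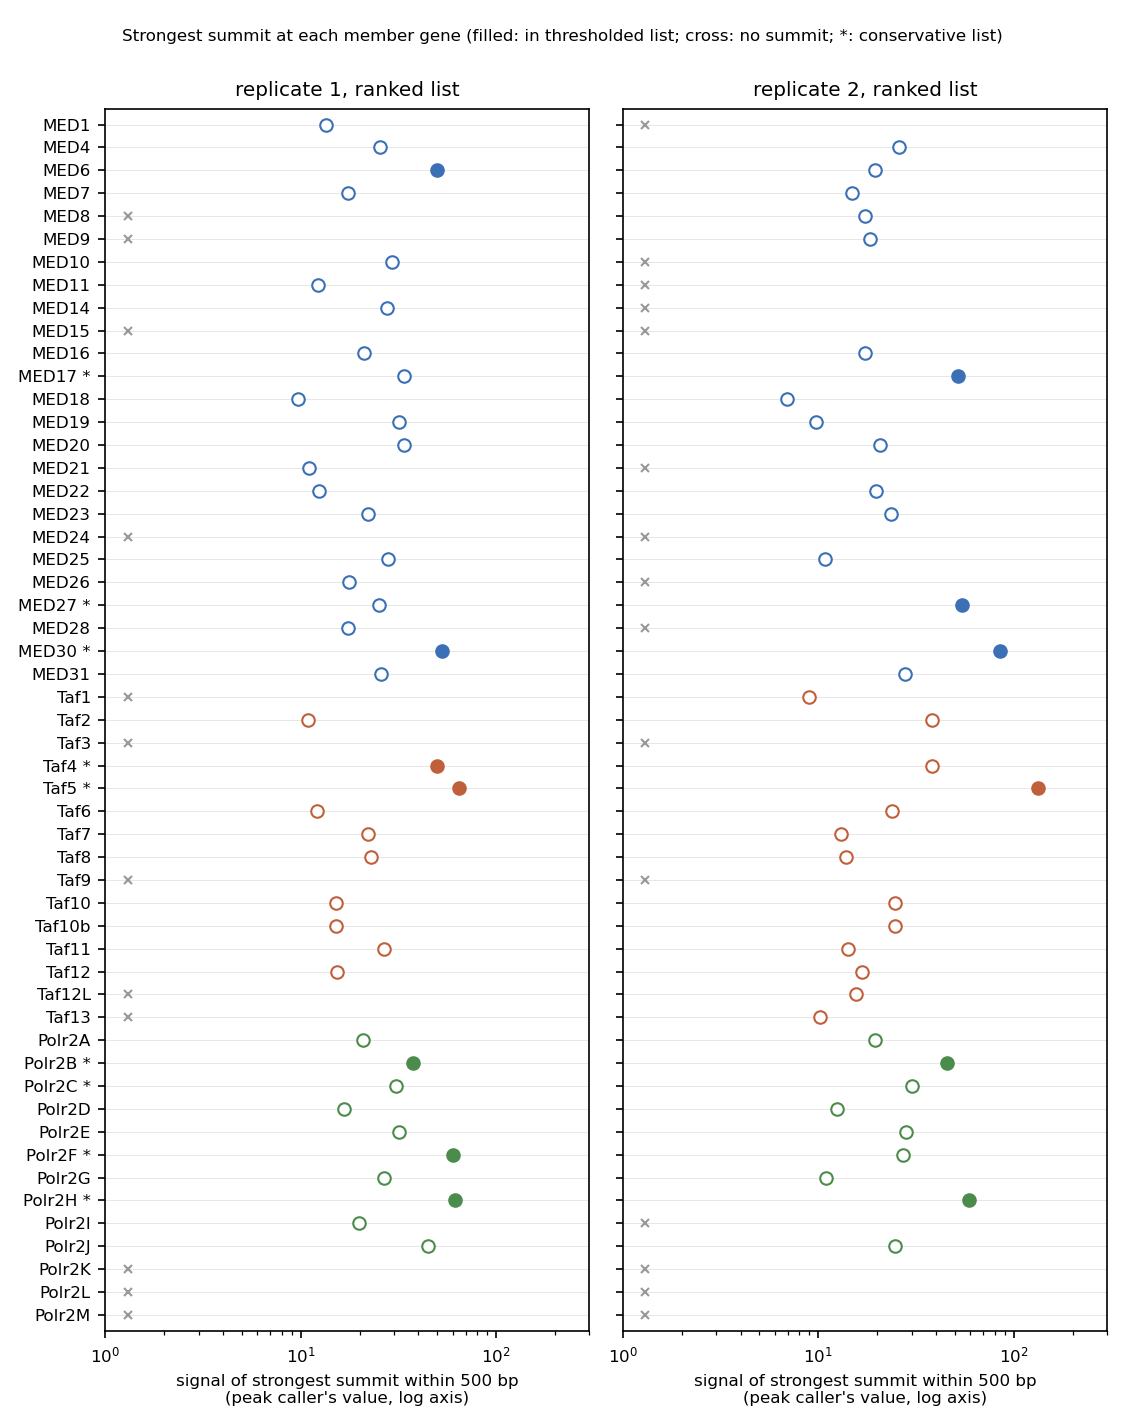
Signal (log axis) of the strongest summit within 500 bp of a TSS of each of the 53 genes in the ranked list of replicate 1 (left) and replicate 2 (right), with MED genes in blue, Taf genes in orange and Polr2 genes in green. Filled circles are in that replicate's thresholded list, crosses mark genes with no summit, and asterisks mark genes bound in the conservative list. Signals of genes with a summit run from 9.70 to 64.6 in replicate 1 and from 6.90 to 134 in replicate 2, where Taf5 is highest in both.

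The 9 bound genes had 10 conservative peaks within 500 bp, Polr2F having a pair that overlapped each other. Of these 10 peaks, 4 overlapped a thresholded peak of each replicate by at least 1 bp, and the same number did at an overlap of 50% of the shorter peak. All 10 overlapped a ranked peak of each replicate. The conservative list was itself made from both replicates, so this overlap gives no separate support for the peaks. The matching shares over all 3006 conservative peaks are not given here. These counts are therefore not read as high or low for these genes. The replicate summits of the 4 genes called in both replicates lay 15 bp apart at MED30, 24 bp at Polr2B, 36 bp at Polr2H and 59 bp at Taf5.

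Genes that work with these complexes were described beside them. Of the Mediator kinase module genes, which carry other symbols, 1 of 4 was bound in the conservative list, namely skd, with a signal of 57.2 and the summit 419 bp upstream. None of 3 TATA-binding protein family genes and none of 4 genes of testis-specific TAFs was bound. At the 10.9% share of all protein-coding genes, 0.437 of the 4 kinase module genes would be bound. The same share gives 0.328 of the 3 TATA-binding protein family genes and 0.437 of the 4 testis genes. These lists are too small to set their counts apart from that share. Among other basal factors 2 of 18 (11.1%) were bound, close to the 10.9% of all protein-coding genes. They were Ssl1, a TFIIH subunit, with a signal of 444, and TfIIA-L, which encodes a TFIIA precursor, with 85.6. Ssl1 was also called in both replicates, with signals of 171 and 282, but the nearest TSS to each of the 2 conservative summits belonged to another gene.

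Among pausing and elongation factor genes 3 of 12 (25.0%, Wilson 95% interval 8.89 to 53.2) were bound in the conservative list, where 1.31 would be at the 10.9% of all protein-coding genes, a share that the interval held. Su(Tpl), which encodes the elongation factor ELL, had a signal of 388, Nelf-E, of the negative elongation factor, had 190, and lilli, of the super elongation complex, had 136. All 3 exceeded the median of 112 over all bound coding genes. In the replicate lists 4 and 5 of the 12 were called, a mean of 37.5% ± 5.89 (SD, n = 2), against 8.03% ± 0.182. The Wilson intervals were 13.8 to 60.9 in replicate 1 and 19.3 to 68.0 in replicate 2, above the 7.90% and 8.16% of all protein-coding genes. This list is small, and no test of it was made. None of 17 genes of RNA polymerases I and III was bound in the conservative list (upper Wilson bound 18.4%), where 1.86 would be at the share of all protein-coding genes. The other thresholded list of both replicates held a summit at 1 of the 17 (5.88%), against 12.3% of all protein-coding genes. In the ranked lists 11 of the 17 (64.7%) had a summit in replicate 1, against 67.9% of all protein-coding genes, and 7 (41.2%) in replicate 2, against 63.2%. Only 4 (23.5%) had one in each of the replicates, against 50.6%, while 14 (82.4%) had one in at least 1 replicate, against 80.5%.

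The sequence of the bound windows was described by 7 motifs in the 201 bp around the summit, with matches counted on both strands. TATAAA was present in 5 of 9 windows (55.6%), those of MED17, MED27, Polr2C, Polr2H and Taf5, against 27.1% of 1172 windows of conservative peaks near a TSS. CGATA was present in 2 (22.2%, MED27 and Polr2F), against 29.0%, and TCAGTT, a form of the initiator, in 1 (Polr2C), against 12.1%. GAGAGAG, the repeat bound by GAGA factor, was in none, against 14.8%, and neither CAGCTG (13.8%), TCAGTC (6.14%) nor TATCGATA (4.35%), a DNA replication-related element that contains CGATA, was found. The 9 windows were AT-rich, with a median GC content of 32.8% (range 22.9 to 45.3) against 42.3% for the 1172 windows. The part of base composition in the TATAAA count was not tested.

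Promoters of all 53 genes, taken from 250 bp upstream to 50 bp downstream of the 5'-most TSS, were searched in the same way. TATCGATA was present in 10 of 53 (18.9%) against 9.36% of 13960 protein-coding promoters, and 1 of these 10 genes, MED17, was bound. TATAAA was present in 29 (54.7%) against 45.8%, and CGATA in 30 (56.6%) against 47.4%. The initiator form TCAGTT was present in 4 (7.55%) against 26.1%, and GAGAGAG in 1 (1.89%, MED21) against 5.86%. The median GC content was 36.0% against 38.0%.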

How the data were processed

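Peak lists in dm6 coordinates were analysed for 2 biological replicates of 1 group. Per the deposited file lists, each peak list was made from alignments together with 1 file common to both replicates. Which aligner and peak caller made them is not given in the sources used here. The score in column 5 of the authors' lists runs to 1000 and was at least 830 in thresholded lists. The signal in column 7 was set by the authors' peak caller, and its scale is unknown. In the ranked lists of both replicates 16 columns with values of single inputs were not used. The lists hold no read counts.

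Gene models came from Ensembl release 115 and bases from RefSeq's version of that assembly. A summit was the peak start plus column 10. Summits within 500 bp of any TSS of a gene were assigned to it, and the strongest was reported. Summit assignment was tested on simulated data. Python 3.11.15, numpy 2.4.6, scipy 1.17.1 and matplotlib 3.10.9 were used. Shares carry Wilson 95% intervals, or the SD over n = 2 replicate lists, and no test was run. Alternatives changed the distance, list, threshold, gene assignment and overlap.

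The genes and lists were chosen with earlier results of these data known. Named were all genes of the 3 complexes called in the conservative list or a replicate's thresholded list, the 6 other genes with the highest mean rank over both ranked lists, and genes of the companion lists bound in the conservative list. Genes without a summit in either replicate's ranked list, Polr2A, Polr2I, Taf10, Taf10b, Taf12 and MED21 were named after their values were seen. Of the companion symbols, rye found no unique match. Column 5 is read as a scaled irreproducible discovery rate.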

Additional observations from a re-analysis of the deposited data

How the results depend on the processing

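Of 51 alternative values, 36 stayed within 1.5 times the value reported or, for the median signal, within its spread, and 15 moved further. Keeping conservative peaks at or above the median signal reduced the bound genes from 9 to 3 of 53, with 1 MED, 1 Taf, 1 Polr2 and 1 basal factor gene left, and all protein-coding genes from 1525 to 866. Assigning each summit to the nearest TSS alone left 5 of 53, with 1 MED and 2 Polr2 genes and 0 of 18 other basal factors, where Ssl1 and TfIIA-L were both lost. Leaving out 1 replicate meant using the thresholded list of the other, which has fewer peaks than the conservative list. This gave 6 to 7 of 53, with 2 to 3 MED, 1 to 2 Taf and 2 to 3 Polr2 genes, and 1 basal factor in either case. The share of all protein-coding genes fell as well, from 10.9% to 8.16% without replicate 1 and 7.90% without replicate 2. Without replicate 1, Taf4 and Polr2F were lost, and without replicate 2, MED17 and MED27 were lost and MED6 was gained. Polr2C was in neither replicate's thresholded list. Peaks shared by both replicates rose from 4 to 10 of 10 with ranked lists in place of thresholded ones. The ranked lists hold far more peaks, and the stricter threshold and the nearest-TSS rule can only remove genes. For the changes on leaving out a replicate the cause was not tested. Adding back the 124 ranked peaks that scored at least 830 changed none of the bound genes. No paired analysis was possible because the series has 1 group. Read depth is unknown, so a missing peak cannot be told from a lack of reads. Neighbours at head-to-head promoters share peaks, so their genes are not independent counts.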
